A study of Oncorhynchus mykiss with 18 samples.

Results

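The hotspots described are every line of the DMC1-SSDS peak list of the TAC-3 testis, with no selection by value. They make up 7.6% of the 2749 hotspots in the 3 lists of the series, and divide into 53 with an H3K4me3 peak of the same testis at the center and 156 without one. TAC-3 is a rainbow trout (*Oncorhynchus mykiss*) of *Prdm9* genotype 2/6 with a testis at maturation stage III. The hotspots were set beside the H3K4me3 and H3K36me3 peaks of the same testis (50548 and 40535 peaks), and beside the hotspots of TAC-1 (genotype 1/5, stage III, 616 hotspots, with its own histone peaks) and RT-52 (genotype 1/2, stage IV, 1924 hotspots). All 3 fish carry the strain label INRA-AUT, and TAC-3 has allele 2 in common with RT-52 and no allele in common with TAC-1. The DMC1 antibody is labelled DMC1-R1 in both TAC-3 and both TAC-1 replicates, whereas RT-52 had 1 replicate with DMC1-R1 and 1 with DMC1-GP.

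DMC1 is the recombinase that coats the resected single-stranded ends of meiotic double-strand breaks, so that sequencing its single-stranded DNA (SSDS) maps where breaks form. In some mammals these sites are chosen by PRDM9, whose zinc fingers bind DNA and whose methyltransferase domain places H3K4me3 and H3K36me3 on nearby nucleosomes. Away from such sites, H3K4me3 is known from promoters and H3K36me3 from the bodies of transcribed genes, and the 2 marks rarely meet.

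Each list pools the 2 replicates of a testis and each genotype is 1 fish. No replicate error could therefore be computed, and intervals and p-values cover the spread between sites of this testis only, not between fish. Between TAC-3 and TAC-1, which have the same stage and DMC1 antibody, genotype and individual cannot be told apart, and between TAC-3 and RT-52 stage and antibody differ as well. The lists give no read depth, and since signal under the calling threshold is not listed, the absence of a peak does not show the absence of a mark. An H3K4me3 peak of TAC-3 lay within 1 kb of a boundary of 17 of the 17 meiotic germ cell genes that could be matched from a list of 24 (among them *dmc1*, *spo11*, *sycp1* and *ddx4*), against 24187 of 40693 protein-coding genes (59.4%). The 24 genes were chosen with earlier results of these data known, so this count is not an independent check of the tissue.

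The deposited DMC1-SSDS values of all TAC-3 hotspots had a median of 58 (95% interval of the median 54 to 63), with quartiles of 44 and 82, a lowest value of 13 and a highest of 1769. The unit of the value is not named in the list, and it was used only to order hotspots. Most hotspots were close to each other in value. A total of 172 (82.3%) had a value of at most 100, 8 exceeded 200 and 1 exceeded 1000. Widths had a median of 1654 bp (1584 to 1842), with quartiles of 1522 and 2366 bp and extremes of 804 and 9006 bp. Many widths were nearly equal, with 56 hotspots (26.8%) between 1500 and 1600 bp. The bounds of this band were chosen after the widths were seen.

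**Figure D1:**
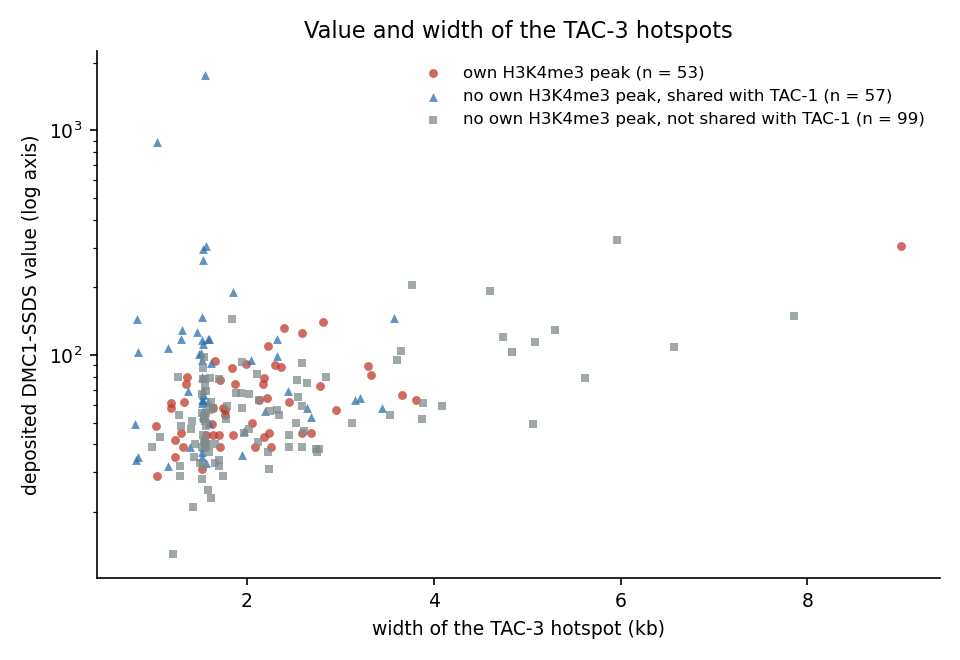
Deposited DMC1-SSDS value (log axis) against width in kb for each TAC-3 hotspot, by the presence of a TAC-3 H3K4me3 peak at the center and of a TAC-1 hotspot at the same place. The 2 highest values, 1769 and 889, belong to hotspots shared with TAC-1. Widths over 5 kb are found at 1 of 53 hotspots (1.89%) with an H3K4me3 peak at the center and 7 of 156 (4.49%) without.

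The value of 1769 was that of a hotspot on chromosome 27 from 40361013 to 40362558 (USDA_OmykA_1.1, counted from 1, as are all positions here), inside the protein-coding gene *LOC110508036* and 61916 bp from its nearest boundary. The next (889) lay on chromosome 7 from 64674591 to 64675624, inside *LOC110528239*. Neither had an H3K4me3 peak at its center. The nearest were 66052 and 8914 bp away, and both sites were also hotspots in TAC-1, with values of 1691 and 855 there. Of the 10 hotspots with the highest values, 1 had an own H3K4me3 peak at the center and 6 were shared with TAC-1. Over all TAC-3 hotspots these shares were 25.4% and 27.3%, and counts among 10 sites are small. The one with H3K4me3 lay on chromosome 2 from 15324988 to 15333993 (value 306), inside *LOC110535793* and 81 bp from a boundary of that gene. The others shared with TAC-1 were on chromosome 18 from 67563155 to 67564714 (306), chromosome 4 from 5644186 to 5645709 (295) and chromosome 2 from 4649456 to 4651301 (190), with another on an unplaced scaffold (264). The remaining 3 were found in TAC-3 alone. They lay on chromosome 16 from 39726203 to 39732168 (324), chromosome 5 from 28257159 to 28260922 (204) and chromosome 16 from 76101532 to 76106127 (192). They were 5966, 3764 and 4596 bp wide, and their centers were 1273, 1074 and 379 bp from a boundary of a protein-coding gene.

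The widest hotspot was the one on chromosome 2 just named (9006 bp). The other 4 of the 5 widest had no H3K4me3 peak at the center, which was so for 156 of the TAC-3 hotspots against 53 with one. They measured 7860 bp on chromosome 32 from 41439808 to 41447667, inside *eppk1*, the gene of the cytoskeletal linker epiplakin, 6570 bp on chromosome 18 from 62005966 to 62012535, 5966 bp on chromosome 16 (above) and 5622 bp on chromosome 15 from 58671493 to 58677114. The last lay inside *LOC118938818*, annotated as an immune receptor V segment. Across all sites, value and width were weakly related (Spearman's rho = 0.242), and more so among the 152 not shared with TAC-1 (rho = 0.455). Both are descriptions over sites of 1 testis, called from the same signal.

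A TAC-3 H3K4me3 peak overlapped the central 400 bp of 53 hotspots (25.4%, 95% Wilson interval 19.9% to 31.7%), against 2.86% of all chromosome bases at which a window of this size would overlap one. For H3K36me3 there were 41 (19.6%, 14.8% to 25.5%, against 3.86% of bases). Both marks were found at 38 (18.2%, 13.5% to 24.0%, against 0.223% of bases). Neither peak was found at 153 hotspots (73.2%). Over their full length, 68 hotspots (32.5%) overlapped an H3K4me3 peak. The TAC-1 list, with 153665 H3K4me3 peaks, had one at 14 of the TAC-3 hotspot centers (6.70%), against 7.41% of bases.

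Gene bodies hold most H3K36me3 in this testis, but hotspots outside genes carried it too. The share of bases at which a window would meet a TAC-3 H3K36me3 peak was 6.41% inside genes and 0.396% outside. Among the hotspots with H3K4me3, an H3K36me3 peak was present at 25 of 36 inside genes (69.4%) and at 12 of 16 outside genes (75%). Among those without H3K4me3 on chromosomes, it was present at 2 of 75 inside genes and at 0 of 70 outside, which allows a share of up to 4.29%.

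**Figure D2:**
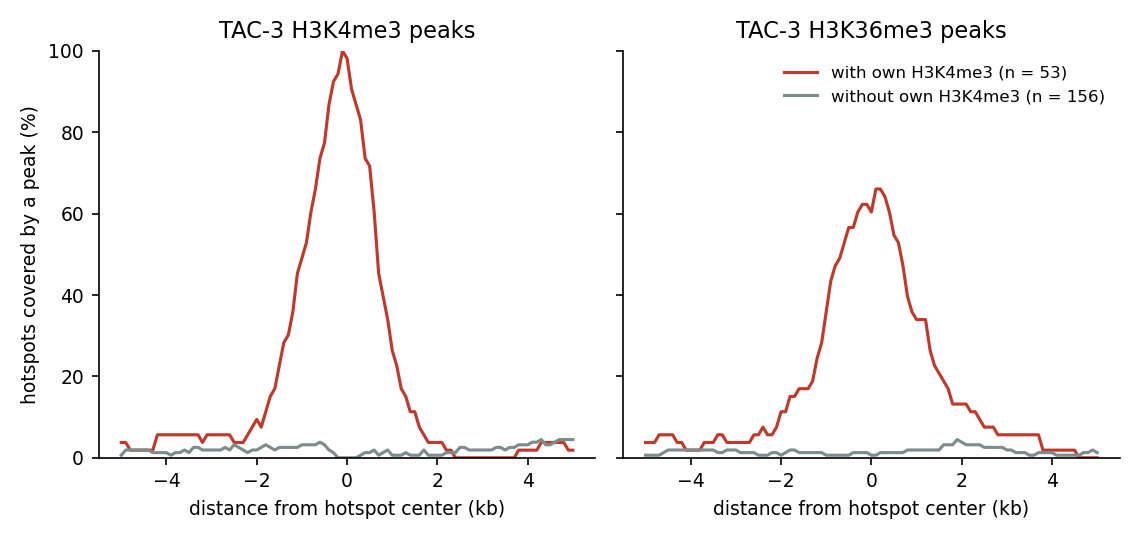
Percent of hotspots whose position at each distance from the center (kb, steps of 100 bp) lies in a TAC-3 H3K4me3 peak (left) or H3K36me3 peak (right), for the 53 hotspots with and the 156 without own H3K4me3. The H3K4me3 curves are set apart at 0 by the grouping itself, while H3K36me3 reaches 60.4% at the center of the 53 and 0.641% at that of the 156.

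The 53 hotspots with own H3K4me3 were then compared with the 156 without, in 9 contrasts (two-sided Fisher's exact test, Benjamini-Hochberg adjusted over the 9). Hotspots with H3K4me3 carried H3K36me3 at 38 of 53 centers (71.7%), against 3 of 156 (1.92%) without it, a difference of 69.8 percentage points (95% Newcombe interval 56.0 to 80.2, adjusted exact p = 5.90e-25). They were also hotspots in RT-52, which has allele 2 in common with TAC-3, at 33 of 53 sites (62.3%), against 11 of 156 (7.05%), a difference of 55.2 points (40.8 to 67.4, adjusted exact p = 6.34e-15). The central 400 bp of RT-52 hotspots would be met from 0.0669% of chromosome bases. Sharing with TAC-1 ran the other way. None of the 53 was a TAC-1 hotspot (0%, which allows a share of up to 5.66%), against 57 of 156 without H3K4me3 (36.5%), a difference of -36.5 points (-44.3 to -26.7, adjusted exact p = 1.27e-08), where 0.0213% of bases would meet a TAC-1 hotspot.

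**Figure D3:**
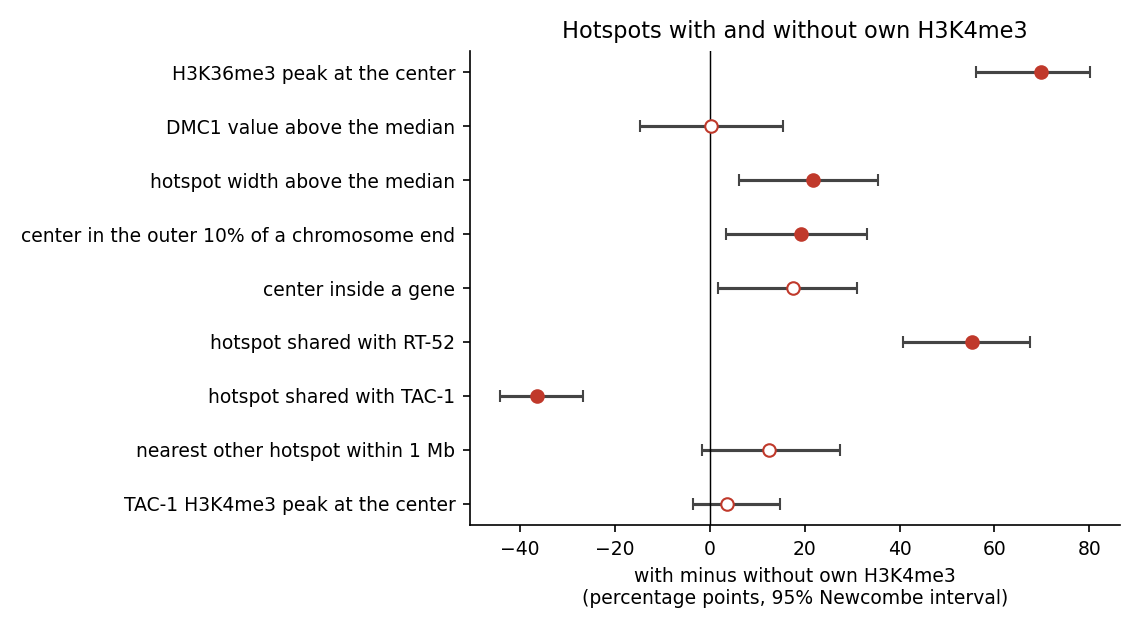
Difference in percentage points between the 53 hotspots with and the 156 without own H3K4me3 (52 and 145 on chromosomes for the contrasts of position), with 95% Newcombe intervals, for 9 contrasts. Filled points passed the threshold of 0.05 after adjustment. H3K36me3 (69.8) and sharing with RT-52 (55.2) lie farthest to the right and sharing with TAC-1 (-36.5) farthest to the left.

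Values above the median were about as frequent in both groups over all hotspots. A value above the median of 58 was found at 26 of 53 hotspots with H3K4me3 (49.1%) and 76 of 156 without (48.7%), and the difference of 0.34 points had an interval from -14.8 to 15.5 (adjusted exact p = 1). Both groups had a median of 58. The difference was larger without the hotspots shared with TAC-1, all of which lacked own H3K4me3, with an interval that overlapped the first. Without them, 31 of 53 (58.5%) with H3K4me3 and 44 of 99 (44.4%) without were above the new median of 55, a difference of 14.1 points (-2.56 to 29.5, adjusted exact p = 0.201), and the group medians were 58 and 53. In the upper quartile of values the difference was -5.53 points (adjusted exact p = 0.467). The tails were unlike over all hotspots, with values up to 306 with H3K4me3 and up to 1769 without. Values exceeded 100 at 5 of 53 (9.43%) with H3K4me3 and at 32 of 156 (20.5%) without. This count was described after it was seen and not tested. Without the hotspots shared with TAC-1, the highest value without H3K4me3 was 324 and the upper quartile 76, against 306 and 79 with it. Widths above the median of 1654 bp were found at 35 of 53 hotspots with H3K4me3 (66.0%) and 69 of 156 without (44.2%), a difference of 21.8 points (6.25 to 35.4, adjusted exact p = 0.0156). Median widths were 1874 bp (1696 to 2210) with and 1589 bp (1554 to 1704) without. The call was kept with own H3K4me3 called over the full length of hotspots (28.7 points, adjusted exact p = 2.63e-04). It was also kept over their central 2 kb (26.5 points, adjusted exact p = 8.62e-04). With only H3K4me3 peaks above the median score it was kept narrowly (19.2 points, adjusted exact p = 0.0490). The call was lost without the hotspots shared with TAC-1, where the difference was 7.24 points (adjusted exact p = 0.496), and the share in the upper quartile of widths was no higher (-0.47 points, adjusted exact p = 1).

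A TAC-1 H3K4me3 peak was found at the center of 5 of 53 hotspots with own H3K4me3 (9.43%) and 9 of 156 without (5.77%), with a difference of 3.67 points (-3.53 to 14.8, adjusted exact p = 0.396). A difference in H3K4me3 of the testis with other alleles was thus not detected.

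Most own H3K4me3 peaks at hotspots were among the wider ones of the list, and their scores were above its median but not at its top. Their widths had a median of 1795 bp (1384 to 2159), from 254 to 5545 bp, and their scores a median of 355.5 (288.33 to 462.67), from 150 to 1084. Within the TAC-3 list of 50548 peaks, the median of the 53 lay at percentile 90.0 of the widths and 67.2 of the scores. The highest score of any of them ranked 6409 in the list, and 0 of 53 were among the highest-scoring 10% (which allows a share of up to 5.66%). A wide peak meets more windows than a narrow one. When each peak of the list was weighted by the number of window centers that would meet it, the median width was 1129 bp and the median score 265, and 41 and 40 of the 53 exceeded these values. In the same weighted list, 9.35% of H3K4me3 peaks overlapped an H3K36me3 peak and 55.6% of those on chromosomes lay within 1 kb of a gene boundary. At hotspots these shares were 39 of 53 (73.6%) and 12 of 52 (23.1%).

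**Figure D4:**
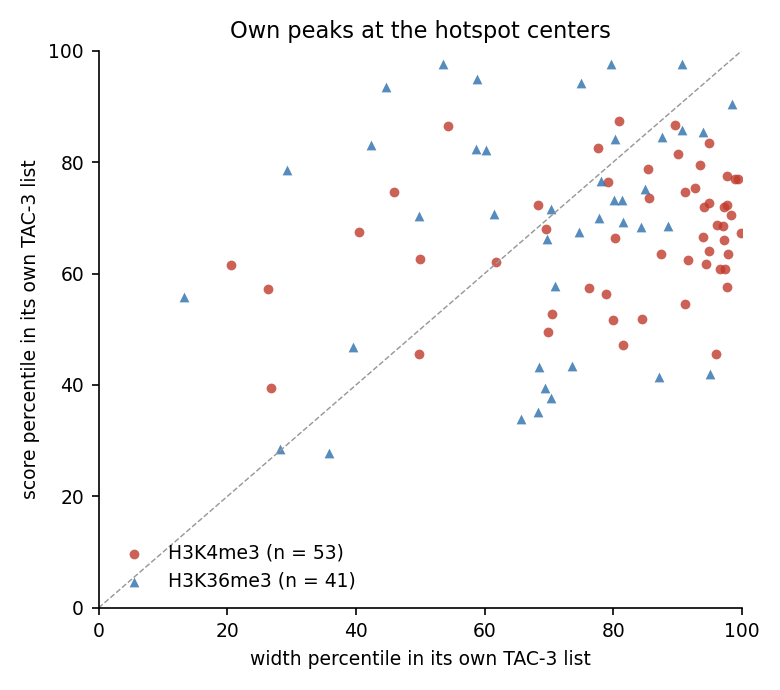
Percentile of score against percentile of width, each within its own TAC-3 list, for the 53 H3K4me3 and 41 H3K36me3 peaks at hotspot centers. The dashed line marks equal percentiles. The H3K4me3 peaks gather at the right, with a median width percentile of 90.0, and none passes the score percentile of 87.3.

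H3K36me3 peaks at hotspots were narrower than those of the weighted list. Their median width was 1970 bp (1646 to 2747), at percentile 71.0 of the unweighted list, against a weighted median of 2905 bp that 10 of 41 exceeded. Their median score of 182 (170 to 226.5) stood at percentile 70.7 of the list, and 26 of 41 exceeded the weighted median score of 175.5. The best of them ranked 933 of 40535. Of these 41 peaks, 38 (92.7%) overlapped an H3K4me3 peak, against 11.7% in the weighted list. At the 38 centers with both marks, the scores of the 2 peaks went together (Spearman's rho = 0.576), and their centers were a median of 270 bp apart (13.5 to 2696 bp).

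The center of the own H3K4me3 peak lay a median of 280 bp (179.5 to 362) from the hotspot center, at under 500 bp in 44 of 53 cases (83.0%). The same distance for H3K36me3 was 276.5 bp (160 to 467), with 28 of 41 under 500 bp (68.3%). The H3K4me3 peak contained the hotspot center itself in 52 of 53 cases, and it was narrower than the hotspot in 32 of 53 and inside it in 19. Own peaks were counted only where they met the central 400 bp, which by itself favors small offsets and a peak over the center. DMC1 signal and marks were not ordered alike in strength. Over the 53 sites, the DMC1 value and the H3K4me3 score had a rho of 0.0416, and over the 41 sites with H3K36me3 the rho was -0.122.

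The 5 highest H3K4me3 scores at hotspots were found on chromosome 10 from 6085701 to 6087880 (score 1084, rank 6409), chromosome 23 from 15717704 to 15719955 (1046), chromosome 30 from 6563126 to 6565209 (1037), chromosome 32 from 1652703 to 1654690 (873.3) and chromosome 2 from 1659822 to 1663115 (824.5). Their DMC1 values were 79, 39, 39, 91 and 89 in the same order. All but that of chromosome 23 had H3K36me3 as well, and the hotspots of chromosomes 10, 30 and 32 were also found in RT-52, with values of 468, 109 and 804. The hotspot of chromosome 32 lay between genes, 4282 bp from *klhl38a*, a gene of the kelch-like family.

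Hotspots with both own marks and an RT-52 hotspot numbered 24, and the 5 with the highest values had H3K4me3 scores from 171.5 to 873.3. The first, on chromosome 10 from 85725218 to 85728025 (value 140), lay inside *LOC110513755* and had an H3K4me3 score of 171.5 and an H3K36me3 score of 147. Its value in RT-52 was 2104. The second, on chromosome 17 from 88014854 to 88017251 (132), inside *LOC110493299*, had scores of 422 and 226.5 and an RT-52 value of 786. The third, on chromosome 24 from 45241483 to 45243708 (110), lay 58718 bp from any gene, with scores of 335 and 122.8 and an RT-52 value of 1555. The fourth was that of chromosome 32 near *klhl38a* (91). The fifth, on chromosome 2 from 11257678 to 11261007 (81), lay inside *prelid3a*, a gene of the PRELI family of lipid transfer proteins, with scores of 269.2 and 231.5 and an RT-52 value of 323. Across the 44 sites shared with RT-52, values in TAC-3 and RT-52 had a rho of 0.545. The H3K4me3 score in TAC-3 and the RT-52 value had a rho of -0.141 over the 33 of them with H3K4me3.

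Only 3 hotspots had own H3K36me3 and no own H3K4me3 at the center. The first, on chromosome 17 from 27883729 to 27884558 (value 103), lay inside *LOC110493591* with an H3K36me3 score of 175.6. The second, on chromosome 28 from 32317060 to 32319009 (value 36), lay inside *LOC110509001* with a score of 284.7. Both were shared with TAC-1, and the H3K36me3 peaks there were 3235 and 9487 bp wide. The third, of value 47, was on an unplaced scaffold. The nearest H3K4me3 peak was 6784 bp away at the first and 12841 bp away at the second.

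The 156 hotspots without own H3K4me3 lay a median of 14805 bp (11212 to 22566) from the nearest TAC-3 H3K4me3 peak and 44989 bp (34439 to 66327) from the nearest H3K36me3 peak, over the 155 and 152 of them with such a peak on the same sequence. Over all TAC-3 hotspots, the medians were 7520 and 26641 bp. Among the 145 on chromosomes, 41 (28.3%) had an H3K4me3 peak within 5 kb, against 21.2% of all chromosome bases, and 16 (11%) had an H3K36me3 peak within 5 kb, against 15.2%. Within 10 kb the shares were 39.3% against 35.5% of bases for H3K4me3, and 20% against 22.6% for H3K36me3. None of these differences was tested. The comparison is also unlike, since these hotspots were grouped by lacking an H3K4me3 peak at the center, whereas the bases include those in peaks. The H3K4me3 peaks nearest to the hotspots without own H3K4me3 had a median list percentile of 47.3.

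All 57 hotspots shared with TAC-1 belong to this group, as none had an own H3K4me3 peak at the center, which allows a share of up to 5.26%. The authors raise the possibility that DMC1 peaks found in both TAC-1 and TAC-3 are artifacts, from the strands of their reads. The lists hold no strands, so this was not tested here. An own H3K36me3 peak was present at 2 of the 57, where 3.86% of chromosome bases would meet one. TAC-1 H3K4me3 was present at 5 of the 57 (8.77%), against 7.41% of bases. Their values had a median of 69 (61 to 101), against 55 (50 to 59) for the 152 others, and 21 of 57 (36.8%) exceeded 100, against 16 of 152 (10.5%). Their widths were tightly grouped, with a median of 1526 bp and quartiles of 1510 and 1614 bp, against a median of 1838 bp and quartiles of 1547.5 and 2554 bp for the others. The band from 1500 to 1600 bp held 28 of 57 (49.1%) shared hotspots and 28 of 152 (18.4%) others. These differences were seen in the values and not tested. Values in TAC-3 and TAC-1 went together over the 57 (rho = 0.735). Centers differed by a median of 16 bp between TAC-3 and TAC-1, against 83 bp (36 to 124) between TAC-3 and RT-52 at the 44 hotspots shared with RT-52.

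The 110 hotspots found in no other testis were compared with those shared with RT-52 without a test. H3K4me3 was present at 20 of their centers (18.2%), against 33 of 44 (75%) in those shared with RT-52. H3K36me3 was present at 15 (13.6%) and both marks at 14 (12.7%). Of the 106 on chromosomes, 19 (17.9%) had their center within 1 kb of a gene boundary, against 7.74% of chromosome bases. The share was 26 of 197 (13.2%) over all TAC-3 hotspots on chromosomes and 1 of 51 (1.96%) in those shared with TAC-1. At hotspots with own H3K4me3 this share was 6 of 52 (11.5%), against 20 of 145 (13.8%) at those without.

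Of the TAC-3 hotspots, 197 were placed on the 32 chromosomes of the gene table, and the 12 others lay on unplaced scaffolds. The number per Mb went from 0.0227 on chromosome 31 (1 hotspot) to 0.191 on chromosome 32 (8 hotspots). Chromosome 2 held the most, with 19 (0.183 per Mb), of which 6 had own H3K4me3. No hotspot with own H3K4me3 lay on chromosomes 3, 9, 11, 13, 14, 18, 26 and 28, which together held 37 of the 197. Each of these chromosomes held from 2 to 9 hotspots. They were named after the counts were seen, and no test was run.

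Hotspots with own H3K4me3 lay more often in the outer 10% of chromosome length than those without, but not in the outermost 1 Mb. Of the 52 on chromosomes, 34 (65.4%) lay in the outer 10% at an end, against 67 of 145 (46.2%) without H3K4me3, a difference of 19.2 points (3.36 to 33.1, adjusted exact p = 0.0418). These zones hold 20% of the length. At 1 and 5 Mb from an end the groups were not set apart in this way. The outer 1 Mb held 3 of 52 (5.77%) with and 16 of 145 (11%) without, and the outer 5 Mb held 23 of 52 (44.2%) with and 59 of 145 (40.7%) without, neither of which was tested. H3K4me3 peaks at large were not denser there, as a window in the outer 10% would meet a TAC-3 H3K4me3 peak at 2.27% of bases and one in the inner 80% at 3.01%. The median distance to the end was 5.25 Mb (3.76 to 6.56) with and 7.26 Mb (5.32 to 9.80) without. The upper quartiles were 7.48 Mb with and 22.5 Mb without, so the groups parted farther in. These quartiles were not tested, but the contrast in the outer 20% at an end was 28.7 points (adjusted exact p = 4.51e-05). In the central part of chromosomes, over 25% of the length from either end, there was 1 of 52 hotspots with H3K4me3 (1.92%), against 43 of 145 without (29.7%), of which 24 were not shared with TAC-1. This boundary was chosen after the positions were seen, and the counts were not tested. The call for the outer 10% was lost without the hotspots shared with TAC-1 (14.3 points, adjusted exact p = 0.201), with the outer 5% (7.72 points, adjusted exact p = 0.375) and with only the H3K4me3 peaks above the median score of their list (16.5 points, adjusted exact p = 0.0840). It was kept with own H3K4me3 called over the full length or the central 2 kb of hotspots (19.9 points and adjusted exact p = 0.0181 in each case).

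**Figure D5:**
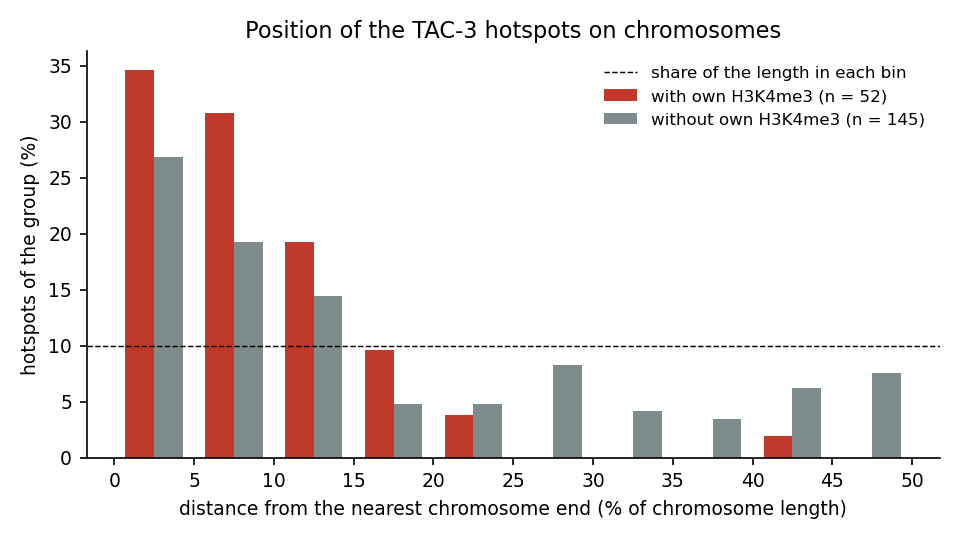
Percent of hotspots in bins of distance from the nearest chromosome end (% of chromosome length), for the 52 hotspots with and the 145 without own H3K4me3 on chromosomes, and the share of the length in each bin (dashed). The 3 bins nearest the ends hold 44 of the 52, and 1 of the 52 lies farther than 25% from an end, against 43 of the 145.

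Genes of the RefSeq table covered the center of 111 of the 197 hotspots (56.3%, 49.4% to 63.1%), against 57.6% of chromosome bases. A window would meet a TAC-3 H3K4me3 peak at 3.25% of bases inside genes and at 2.33% outside. The contrast that follows was not adjusted for this. With own H3K4me3, 36 of 52 centers were inside a gene (69.2%), against 75 of 145 without (51.7%), a difference of 17.5 points (1.82 to 31.0) that missed the threshold (adjusted exact p = 0.0515). Every one of these 36 was in a protein-coding gene, against 69 of the 75. When protein-coding genes alone were counted the difference was 21.6 points (adjusted exact p = 0.0168). With own H3K4me3 called over the full length of hotspots it was 10.1 points (adjusted exact p = 0.285), and over their central 2 kb 7.75 points (adjusted exact p = 0.439). The median distance to the nearest gene boundary was 10658 bp (4797 to 19848) with and 8965 bp (5992 to 15138) without, and these intervals overlap.

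Neighboring hotspots on the same chromosome were a median of 3.90 Mb apart, center to center, with quartiles of 1.62 and 14.3 Mb and extremes of 1.89 kb and 72.9 Mb over 165 gaps. Of these gaps, 30 were under 1 Mb and 5 under 50 kb. Another hotspot within 1 Mb was found for 19 of 52 hotspots with own H3K4me3 (36.5%) and 35 of 145 without (24.1%), a difference of 12.4 points (-1.57 to 27.4, adjusted exact p = 0.133). With a limit of 5 Mb the difference was 25.7 points (adjusted exact p = 8.97e-04), and with 250 kb it was 10.1 points (adjusted exact p = 0.126). Without the hotspots shared with TAC-1 it was 6.51 points for 1 Mb (adjusted exact p = 0.486).

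The 5 gaps under 50 kb lay on chromosomes 2, 10, 23 and 32. On chromosome 2, the 9006 bp hotspot from 15324988 to 15333993 with own H3K4me3 overlapped a hotspot from 15332145 to 15334466 (value 99) that was shared with TAC-1, with centers 3815 bp apart. On chromosome 10, the hotspot from 85716996 to 85718517 (value 37), shared with TAC-1, lay 8865 bp from the one with both marks and the RT-52 value of 2104. On chromosome 23, hotspots from 55568762 to 55571305 (65) and from 55614706 to 55616231 (54, shared with TAC-1) were 45435 bp apart and lay 365171 and 319736 bp from any gene, and neither had own H3K4me3. On chromosome 32, 0.341 Mb from the end, the hotspot in *eppk1* (149) was 24414 bp from a hotspot at 41467549 to 41468754. That hotspot had the lowest value of the list (13) and lay wholly inside another, from 41467396 to 41472691 (129), over the pseudogene *LOC110487689*, with centers 1892 bp apart. None of these 3 had own H3K4me3 at the center.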

How the data were processed

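DMC1-SSDS, H3K4me3 and H3K36me3 ChIP-seq were made on testes, with 2 replicates for each target and individual. The authors aligned reads to USDA_OmykA_1.1 with BWA (for SSDS in a variant for single-stranded DNA; version 0.7.17-r1188 in the submitters' notes), called peaks with MACS2 (2.2.7.1), and deposited 1 list per individual and target, with a position and a score in each line. DMC1-SSDS peaks had passed a filter of reproducibility on the pooled reads of the 2 replicates and been recentered. Histone peaks within 1 kb of each other were merged, which widens clustered peaks, given a mean score, and kept where peaks of the 2 replicates covered each other by 25%. Scores, including the DMC1-SSDS values, were used only within a list.

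All 209 TAC-3 hotspots were used. The central 400 bp of each hotspot were compared with full-length histone peaks, and with the central 400 bp of other hotspots, at an overlap of at least 1 bp. Where several peaks overlapped, the highest-scoring one was used. Background shares are the exact share of bases, over 32 chromosomes of 2232 Mb, at which such a window would be called. Chromosome names come from H3K4me3 peaks at gene boundaries (at least 41.4% at the matched chromosome, at most 18.8% at any other), and the largest position stood in for chromosome length. Shares were compared by Fisher's exact test (two-sided, adjusted by Benjamini-Hochberg over 9 contrasts, threshold 0.05). Intervals are 95% Wilson, Newcombe or order-statistic intervals and cover counting error only, and a count of 0 was read as allowing 3. Rank correlations are given without a test. Distances run from the hotspot center to the nearest base of a peak. Python 3.11.15, numpy 2.4.6, pandas 2.3.3, SciPy 1.17.1 and matplotlib 3.10.9 were used, and the functions were tested on simulated data against bedtools 2.31.1.

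Hotspots named are the 10 highest in value, the 5 widest, the 5 with the highest own H3K4me3 score, the 5 highest in value with both marks and an RT-52 hotspot, the 3 with H3K36me3 only, and neighbors under 50 kb apart, with the gene at or nearest to the center. The members, the contrasts and the marker genes were chosen with earlier results of these data known. Alternatives concerned the window, the overlap, the part of the histone lists (peaks above the median score), the thresholds and the hotspots shared with TAC-1. No genome sequence was used here, so motifs were not analysed here, nor were inputs, strands and signal outside peaks. The gene table gives no strand.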

Additional observations from a re-analysis of the deposited data

How the results depend on the processing

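No paired analysis was possible because each list pools both replicates, and for the same reason no replicate could be left out. With the full length or the central 2 kb of hotspots, 32.5% had own H3K4me3 in each case. With the higher-scoring part of each histone list, 14.4% had own H3K36me3 and 12.9% both marks. Without the hotspots shared with TAC-1, the shares were 34.9%, 25.7% and 25% for H3K4me3, H3K36me3 and both. The contrast in width was then 7.24 points (adjusted exact p = 0.496), and -0.47 points in the upper quartile of widths. This contrast passed over the full length (28.7 points), over the central 2 kb (26.5 points) and with the higher-scoring H3K4me3 peaks (19.2 points). That in the outer 10% of chromosomes was 16.5 points with the higher-scoring H3K4me3 peaks, 14.3 without the hotspots shared with TAC-1 and 7.72 in the outer 5%, none of which passed the threshold. The contrast of position passed in the outer 20% (28.7 points) and with H3K4me3 called over the full length or the central 2 kb (19.9 points each). The contrast inside genes passed with protein-coding genes (21.6 points) and came to 10.1 and 7.75 points with H3K4me3 called over the full length and the central 2 kb. That of close neighbors passed with 5 Mb (25.7 points) and came to 6.51 points without the hotspots shared with TAC-1. That in values did not pass in any alternative run, at -5.53 to 14.1 points. The contrasts in H3K36me3, RT-52 and TAC-1 sharing kept their direction and passed in every alternative run, except that sharing with TAC-1 cannot be contrasted once those hotspots are left out. Without the hotspots shared with TAC-1, the median distances to the nearest H3K4me3 and H3K36me3 peak were 3005 and 14281 bp, and with the higher-scoring part of each list 22614 and 54493 bp. The cause of these changes was not tested. The number of sites limits the precision of each interval, and read depth is not in the lists.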

Other observations

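The own H3K4me3 peaks were not placed evenly around the hotspots. The peak center lay at a lower coordinate than the hotspot center in 40 of 53 cases (75.5%, 95% Wilson interval 62.4% to 85.1%), with a median offset of -177 bp (-282.5 to -58.5). H3K36me3 peaks at the same list of hotspots showed no such side, with 21 of 41 at the lower coordinate (51.2%, 36.5% to 65.7%). With the same TAC-3 H3K4me3 list at RT-52 hotspots, 214 of 441 peaks lay at the lower coordinate (48.5%, 43.9% to 53.2%), and at TAC-1 hotspots with TAC-1 H3K4me3 there were 116 of 223 (52.0%, 45.5% to 58.5%). TAC-3 hotspot centers were not shifted against those of RT-52 at the 33 shared sites with own H3K4me3, where the median difference was -5 bp (-33 to 65). This pattern was found by looking through the offsets and was not tested, and coordinates have no biological direction.

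The share with own H3K4me3 did not follow the order of values. With the list cut into 5 parts from the highest values to the lowest, it was 5 of 42 (11.9%), 15 of 42 (35.7%), 12 of 42 (28.6%), 14 of 42 (33.3%) and 7 of 41 (17.1%). Hotspots shared with TAC-1 made up 24 of the 42 of the highest part (57.1%) and 9 of the 41 of the lowest (22%).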
